A study of Mus musculus with 20 samples.

Results

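The libraries described here compare RGS10 knockout BV-2 cells with wild-type BV-2 cells, both kept in medium alone, the vehicle condition, for 48 hours. They were chosen by their genotype and treatment labels and make up 10 of the 20 libraries of the series, 5 wild-type and 5 knockout. BV-2 is an immortalized microglia line of the mouse, so these are neither primary nor resting brain microglia. The other 10 libraries come from the same lines after 48 hours with IFNγ at 10 ng/mL, 5 of each genotype, and enter only where the knockout difference is set beside its value under IFNγ. In both lines replicates 1 to 3 are labelled batch 1, replicate 4 batch 2 and replicate 5 batch 3. How the knockout was made, and whether it is 1 clone or a pool, is not stated in the labels, so the knockout of RGS10 and any other difference between these 2 lines cannot be told apart.

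RGS10 is a small regulator of G protein signalling. Proteins of this family speed up GTP hydrolysis by Gα subunits and so shorten signalling from G protein-coupled receptors, among them the chemoattractant receptors that steer microglia, the resident macrophages of the brain. RGS10 is abundant in microglia, acts on the Gαi class and is known there for restraint of inflammatory gene expression. The title of the series places it in BV-2 cell migration, so the gene groups below begin with G protein signalling and movement and go on to microglial identity, inflammation, the cell cycle and metabolism.

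Assigned reads came to between 15866749 and 21585759 per wild-type library and between 21650625 and 26039814 per knockout library. Levels are read counts scaled to a common library size (CPM) on normalized library sizes, as mean ± SD over n = 5 libraries, and differences are log2 of knockout over wild type ± SE from edgeR's quasi-likelihood test with batch as a term. A gene was called when its Benjamini-Hochberg adjusted p over all tested genes was under 0.05, and "higher" and "lower" below refer to called genes. The labels call the replicates biological but do not name separate cultures, so the p-values rest on the spread between libraries, which may be partly technical. The first principal component, 60.1% of the variance, separated the lines, and the next, 23.1%, separated batch 1 from batches 2 and 3. Libraries of 1 line within batch 1 differed by more than counting noise (chi-square per degree of freedom of 4.24 to 14.6), and those of different batches by 15.6 to 138. All 12 microglia or macrophage markers examined were measured, and their summed level was 5716 to 8084 CPM in wild type and 3871 to 4203 CPM in knockout, with 3 called higher and 5 lower. Of the marker lists of other cell types, none of the astrocyte, fibroblast, epithelial or granulocyte genes reached the level needed for a test, and 1 lymphocyte gene did and was not called. In the neuronal list Rbfox3 and Snap25 were under 0.1 CPM in all 10 libraries, but Map2 (-2.95) and Tubb3 (-1.56, a call lost with batch 1 summed, adjusted p = 0.063) were lower, and the list summed to 5.98 to 9.47 CPM in wild type and 0.348 to 1.91 CPM in the knockout. In the oligodendrocyte list Mbp was lower (-1.36, a call lost with batch 1 alone, adjusted p = 0.054), with sums of 2.6 to 7.41 and 1.49 to 2.56 CPM, and in the dendritic list Zbtb46 was lower (-1.31), with sums of 15.6 to 21.4 and 5.03 to 9.9 CPM. In the endothelial list Kdr, described below, and Vwf (0.69) were higher, with sums of 33.3 to 67.1 and 259 to 418 CPM. Summed mitochondrially encoded transcripts, a common quality measure, stood apart in batch 2, at 8027 CPM in its wild-type library and 7214 CPM in its knockout library, against 1126 to 3691 CPM in the other 8. Within batch 1 this sum was 2275 to 3691 CPM in wild type and 1126 to 1703 CPM in knockout, and every knockout library was deeper than every wild-type one. The part of these values, the marker lists included, in the differences below was not tested.

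Rgs10 itself was lower in the knockout but still present. The 5 wild-type libraries held 59, 63.8, 68.8, 79 and 66.9 CPM, and the knockout libraries held 32, 27.2, 29.8, 37.3 and 24.3 CPM. The 2 sets of libraries did not overlap. The mean level was 67.5 ± 7.4 CPM for wild type, against 30.1 ± 4.93 CPM for the knockout, 44.6% of the wild-type level (log2 difference -1.17 ± 0.09, adjusted p = 4.5e-07 in edgeR; exact permutation test, two-sided, p = 0.0079, which is the lowest p possible with 5 libraries in each group). Within batches 1, 2 and 3 the log2 difference was -1.10, -1.08 and -1.46. In these bulk libraries, a transcript still made in every cell and one lost from some of the cells cannot be told apart, and a count per gene does not show whether protein is made. Under IFNγ the difference was -0.35 ± 0.13 and not called (adjusted p = 0.06 in edgeR), and the change of the difference between treatments was (adjusted p = 0.044). Of the 5 tested neighbours on each side on chromosome 7, Inpp5f (-0.37), the respiratory chain gene Cox6a2 (-1.03) and Itgax, an integrin chain (-2.24), were lower, BC017158 was higher (0.62), and Tial1, Bag3, Mcmbp, Sec23ip, Armc5 and 9130023H24Rik were not called. The call of Cox6a2 was lost with all 20 libraries in the fit, with batch 1 alone and without the batch term (adjusted p = 0.056, 0.065 and 0.083 in edgeR).

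**Figure D1:**
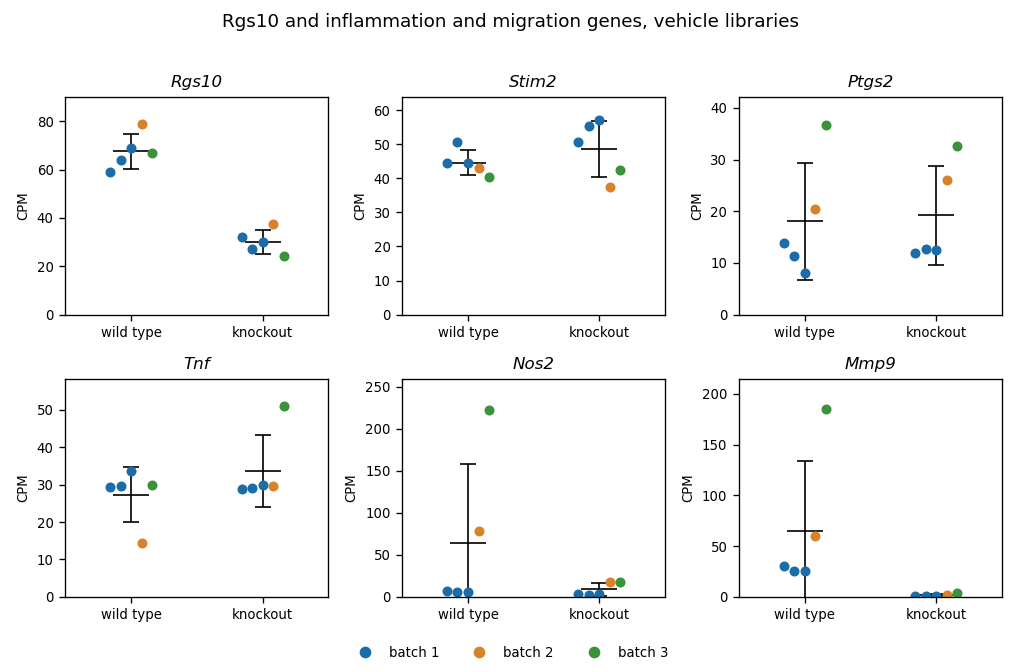
CPM of 6 genes in each vehicle library, with points coloured by batch and a bar with whiskers for the mean ± SD of 5 libraries a line. Rgs10 lies between 24.3 and 37.3 CPM in the knockout libraries and at 59.0 CPM or more in wild type, and for Nos2 and Mmp9 the wild-type libraries of batches 2 and 3 sit well above those of batch 1.

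The lines differed across much of the transcriptome. Of 12549 tested genes, 6224 were called, 49.6% of those tested, with 3095 higher in the knockout (24.7%) and 3129 lower (24.9%). Since about as many genes passed as did not, the size of a difference separates genes better than its call does. More than 1 log2 unit higher were 505 genes (4.02%), and more than 1 lower were 916 (7.3%). The excess on the lower side grew with size, with 35 genes past 16-fold higher and 160 past 16-fold lower. The sign was the same in the 3 batches for 1386 of the 1421 genes past 1 log2, and for 1133 of them the 2 groups of libraries did not overlap, which 26.3% of all tested genes showed. With all 20 libraries in the fit 3753 genes were called, and with the 3 libraries of batch 1 summed into 1 for each line 3048 were, but 1286 and 1184 of the 1421 genes past 1 log2 were still called the same way. Whether the size of the difference varied between batches cannot be decided by a test of that interaction. Batches 2 and 3 hold 1 library a line, so its spread would come from batch 1 alone, whose replicates may be partly technical.

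**Figure D2:**
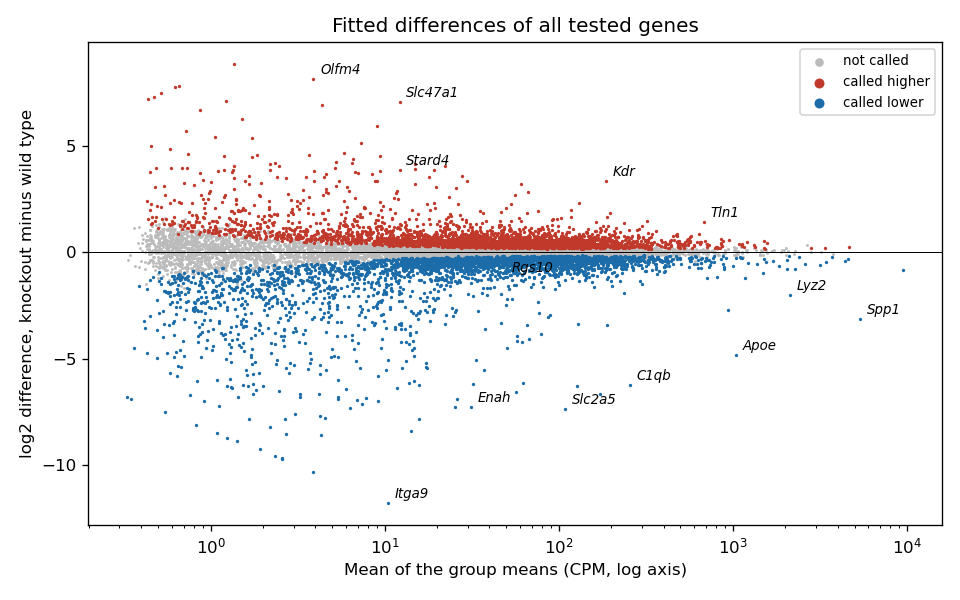
Fitted log2 difference, knockout minus wild type, against mean CPM on a log axis for all 12549 tested genes, with called genes in colour. The largest differences are on the lower side, with Slc2a5, Enah and C1qb below -6; a fitted value of a gene with few or no reads in 1 line, such as Itga9 or Olfm4, depends on the prior count and is no bound.

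Most of the larger differences were also seen after IFNγ. Of the 1238 genes past 1 log2 in vehicle that were tested under IFNγ, 904 were called in the same direction there, 316 of 463 higher genes and 588 of 775 lower ones, and 9 were called in the other direction, where 42.9% of all genes tested under IFNγ were called, 6.27% past 1 log2 higher and 8.74% past 1 log2 lower. The difference itself changed between vehicle and IFNγ for 172 of the 1421 genes, beside 6.5% of all genes tested for it, 3.64% with a shift upward under IFNγ and 2.86% downward. The 1421 were chosen by their vehicle difference, which also enters this test, so a larger share among them can come from that choice alone. Shifts past 1 log2 made up 3.44% of all genes tested, 1.96% upward and 1.48% downward.

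Some genes were on in one line only, taken as a mean of at least 1 CPM in one line with every library of the other under 0.1 CPM. Wild type alone expressed 35 genes by this rule, 11 of them without a single read in the 5 knockout libraries, and the knockout alone expressed 8, 4 of them without a read in wild type. Itga9, the α9 integrin chain that pairs with β1 and binds tenascin and osteopontin, had the highest CPM among the first kind. Wild-type libraries held 18.3, 20.5, 23.1, 17.3 and 25.2 CPM of Itga9, and all 5 knockout libraries held 0. This makes it at least 824-fold lower, taking 3 reads over the 5 knockout libraries as the floor. The 10 of highest CPM also included Prrg1 (1 read in the knockout group), Etl4, Afap1 and Tspan33. Also without a read in the knockout were Cth, the enzyme that makes cysteine from cystathionine (at least 305-fold lower), the collagen gene Col5a3 (at least 202-fold), Selenbp2 (at least 184-fold) and the ephrin receptor gene Ephb2 (at least 112-fold). These bounds are of the wild-type mean and are smaller for single libraries. Wild-type libraries ranged from 0.982 to 16.8 CPM for Col5a3, from 1.72 to 9.63 for Selenbp2 and from 0.686 to 7.91 for Ephb2. H2-Aa, the α chain of the class II molecule I-A, had no read in the knockout either, but in wild type it ranged from 0.491 to 10.2 CPM, highest in batches 2 and 3. Under IFNγ H2-Aa averaged 284 CPM in wild type and 27.4 CPM in the knockout, whereas Itga9 stayed at 0.04 CPM in the knockout. Some losses were nearly complete without meeting the rule, such as that of Ptgfrn, a partner of tetraspanins, which averaged 28.3 ± 4.33 CPM in wild type against 0.0747 ± 0.0572 CPM in the knockout (-8.42 ± 0.26).

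In CPM, which favours long genes, the largest losses were those of Spp1, Lyz2 and Apoe, described below, together with the elongation factor gene Eef1a1 (-0.83 ± 0.06), the sodium pump subunit gene Atp1b3 (-2.73 ± 0.08), the chaperone gene Hspa8 (-0.77 ± 0.12), the cathepsin gene Ctsb (-0.41 ± 0.06) and the glycolytic gene Eno1. Eef1a1, Atp1b3 and Hspa8 all lie on chromosome 9, which holds both lower and higher stretches, as described below. Large gains in CPM were those of Tln1, the intermediate filament gene Vim (0.51 ± 0.12, but 0.62, 0.89 and -0.21 in batches 1, 2 and 3), the ribosomal gene Rpl7 (0.41 ± 0.07), Lgals3, Sqstm1 and Arpc1b. Atp1b3 was 1863, 1808, 1775, 1335 and 1419.99 CPM in wild type and 251, 251, 242, 216 and 264 CPM in the knockout, so the lines did not overlap.

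Of the knockout-only genes, Olfm4, which encodes the secreted glycoprotein olfactomedin 4, held 6.79, 7.72, 7.76, 8.64 and 7.97 CPM in the knockout libraries and 2 reads in all of wild type, a read ratio of 352 with a 95% counting interval of 97.2 to 2913. The transcription factor gene Eya1 held 1.33, 2.09, 1.23, 4.66 and 2.83 CPM there and 1 read in wild type. Barx2, another developmental transcription factor gene, and Cc2d2a, a gene of the primary cilium, were expressed in the knockout only as well. Under IFNγ the knockout libraries still averaged 1.04 CPM of Eya1, 1.2 CPM of Barx2 and 0.901 CPM of Cc2d2a. Olfm4 was at 0.0789 CPM there, against 0.0358 CPM in wild type under IFNγ. The knockout also expressed Slc47a1, an exporter of organic cations, at 21.5, 19.3, 21.9, 31 and 27.5 CPM, against 0.0577, 0.0491, 0.245, 0.498 and 0.0598 CPM in wild type. All 5 knockout libraries were far above wild type, and the difference was 7.05 ± 0.27. Ube2e2, a ubiquitin-conjugating enzyme (6.91 ± 0.44), and the nuclear receptor gene Nr2f1 (5.91 ± 0.31) followed.

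The sequences upstream of 4 genes are shown because each gene differed strongly between the lines. Itga9 and Olfm4 met the rule for genes on in one line only, and Slc2a5 and Nr2f1 did not. Each is the 250 bases before the first listed RefSeq start on GRCm38.p6, on the strand of the gene, with every CpG, the dinucleotide that carries most DNA methylation in mammals, in capitals.
Itga9, chr9:118711442-118711691, plus strand: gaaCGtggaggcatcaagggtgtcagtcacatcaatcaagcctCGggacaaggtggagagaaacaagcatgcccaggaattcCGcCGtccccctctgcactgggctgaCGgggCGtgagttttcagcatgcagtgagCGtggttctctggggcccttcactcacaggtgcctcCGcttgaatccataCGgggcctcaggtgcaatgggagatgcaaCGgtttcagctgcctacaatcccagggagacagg
Slc2a5, chr4:150119094-150119343, plus strand: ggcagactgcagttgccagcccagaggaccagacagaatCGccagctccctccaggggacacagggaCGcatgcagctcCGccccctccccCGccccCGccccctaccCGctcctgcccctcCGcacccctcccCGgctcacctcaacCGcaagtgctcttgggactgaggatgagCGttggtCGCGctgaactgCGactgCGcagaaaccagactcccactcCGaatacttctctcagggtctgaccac
Olfm4, chr14:80000052-80000301, plus strand: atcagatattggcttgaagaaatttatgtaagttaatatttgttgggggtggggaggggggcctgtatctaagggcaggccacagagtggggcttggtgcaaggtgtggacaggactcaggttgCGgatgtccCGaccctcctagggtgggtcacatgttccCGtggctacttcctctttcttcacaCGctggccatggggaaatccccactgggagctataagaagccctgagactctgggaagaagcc
Nr2f1, chr13:78198874-78199123, minus strand: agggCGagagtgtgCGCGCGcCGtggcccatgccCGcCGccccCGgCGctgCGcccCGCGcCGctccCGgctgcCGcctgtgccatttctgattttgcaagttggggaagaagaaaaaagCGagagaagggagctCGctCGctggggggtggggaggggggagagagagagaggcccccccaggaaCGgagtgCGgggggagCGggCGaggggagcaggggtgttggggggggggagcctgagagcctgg
Itga9 and Slc2a5, both far lower in the knockout, held 10 and 15 CpGs, and Olfm4 and Nr2f1, both far higher, held 4 and 22. A promoter was listed for 116 of the 160 genes past 16-fold lower, with a median of 10 CpGs in the 250 bases, and for 22 of the 35 genes past 16-fold higher, with a median of 13. Over the tested genes with a listed promoter the median was 16, and over all listed promoters 6. The letters GAGGAAGT, a site form of the macrophage factor PU.1, stood on either strand in 3.45% of the 116 strongly lower promoters. They stood in 9.09% of the 22 strongly higher ones and in 2.87% of tested genes. TGANTCA, the AP-1 form, stood in 7.76% and 9.09%, beside 4.21%. Both shares of the 22 strongly higher promoters rest on very few matches and show no excess. These are matches of letters in a short window, and no DNA methylation was measured.

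Differences also ran along chromosomes. On chromosome 13 the median of all tested genes was 0.37, with 55.3% of genes higher and 8.81% lower. The opposite held on chromosomes 19 (median -0.38, 62.2% lower), 12 (-0.34, 52.8% lower), 10 (-0.30, 52.6% lower) and 9 (-0.30, 49.4% lower). Chromosome 4 changed sign along its length, with positive medians in its first 10 windows of about 40 tested genes and negative medians in its last 8. Chromosome 9 was mixed as well. Its medians were positive in windows 4 to 9 of 17 (0.39 in window 4, 0.0045 in window 9) and negative in the others (-0.78 in window 15). Over all autosomes and X, 42 of 307 windows had a median past -0.3 and 30 had one past +0.3, and each of these 72 had that sign in all 3 batches. Windows were defined after the chromosome medians had been seen, gene order is that of GRCm38, and these figures are descriptions without a test. RNA does not measure DNA copy number, whose part was not tested. In the lower windows 65.6% of 1681 genes were lower, in the higher windows 62.4% of 1199 were higher, and in the 235 others 23.7% of 9450 genes were higher and 20.2% lower. The share of genes past 1 log2 was 15.8%, 15.3% and 9.95% in the 3 kinds of window. The median of each gene list below is therefore followed by a window-adjusted one, for which the median of its window was subtracted from each gene. The counts of each list are to be read beside the 24.7% higher and 24.9% lower of all tested genes. Past 1 log2 these shares were 4.02% and 7.3%. Counts near these shares are no result about the members of a list. Medians by batch are given for some lists only. Their sign also differed between batches for immediate early genes (0.21, 0.01 and -0.24 in batches 1, 2 and 3) and for other lists with a median near 0, among them the actin, p53 and Toll-like lists.

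**Figure D3:**
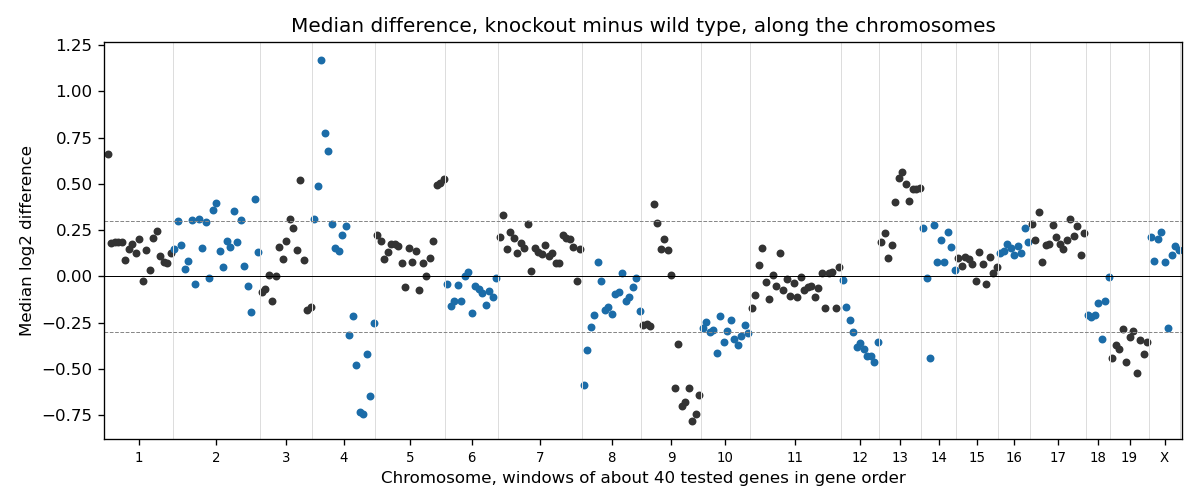
Median log2 difference in windows of about 40 neighbouring tested genes, in gene order along chromosomes 1 to 19 and X, with dashed lines at 0.3 and -0.3. Chromosomes 9, 10, 12 and 19 sit mostly below 0 and chromosome 13 mostly above it, and chromosome 4 crosses from above to below.

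Among the other RGS genes, which encode the relatives of RGS10, 7 of 11 tested genes were higher and 2 lower, 3 and 0 of them past 1 log2 (median 0.41, window-adjusted 0.20). Rgs18, a small family member found in platelets and myeloid cells, held 4.33, 5.6, 3.04, 2.55 and 3.41 CPM in wild type and 18.3, 17.7, 18.2, 13 and 8.88 CPM in the knockout. Every knockout library was above every wild-type one, with a difference of 1.99 ± 0.18 (adjusted p = 2.3e-06 in edgeR). Rgs1, a regulator of chemokine receptor signalling, rose by 1.34 ± 0.18, with 1.70, 1.32 and 0.36 in batches 1, 2 and 3, and Rgs14 rose by 0.62 ± 0.08. Over the tested RGS genes, called or not, the differences ran from -0.90 to 3.93. Of the G protein subunits, 3 of 19 tested genes were higher and 9 lower (median -0.28, window-adjusted -0.07). Gnai2, a Gαi subunit of the class on which RGS10 acts, went from 595 ± 57.2 to 409.9 ± 39.95 CPM (-0.54 ± 0.06) and lies on chromosome 9. Gna15 fell by 0.87 and Gng2 rose by 0.55.

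Receptor kinases and arrestins switch active receptors off, and here 5 of 11 tested genes were higher and 3 lower, 1 and 2 of them past 1 log2 (median 0.35, window-adjusted 0.05). The median of this list was 0.29, 0.37 and -0.18 in batches 1, 2 and 3, so its sign turned in batch 3. Grk3 held 4.16, 4.13, 3.38, 8.03 and 6.82 CPM in wild type and 2 reads in all 5 knockout libraries, a read ratio of 305 (95% counting interval 83.9 to 2525). Grk5, on chromosome 19, fell by 1.21 log2 units, and Arrdc4, an arrestin-like gene, rose by 0.70 (0.99, 0.62 and -0.05 in the 3 batches). For cAMP signalling 3 of 19 tested genes were higher and 6 lower, 1 and 3 of them past 1 log2 (median -0.20, window-adjusted 0.0058). Pde3b, a phosphodiesterase that breaks cAMP down, went from 23.1 ± 2.82 to 0.274 ± 0.209 CPM (-6.37 ± 0.26), Prkar2a, a regulatory subunit of protein kinase A, fell by 1.16 and Pde7a rose by 1.03, a call lost with the libraries of batch 1 summed (adjusted p = 0.12). Among phospholipase C and PI3 kinase genes 4 of 23 tested genes were higher and 10 lower, 0 and 1 of them past 1 log2 (median -0.17, window-adjusted -0.10). Examples are Pik3ap1, an adaptor of PI3 kinase (-0.78), and Plcl2 (0.57). Over the tested members, called or not, the differences ran from -6.73 to 0.57. Calcium entry through STIM and ORAI follows store release, and 6 of 17 tested genes were higher and 7 lower, 0 and 3 of them past 1 log2 (median -0.15, window-adjusted -0.06). The median of this list was 0.12, -0.13 and -0.08 in batches 1, 2 and 3, so its sign turned in batch 1. The channel gene Trpm2 (-1.05) and the IP3 receptor gene Itpr2 (-1.32) were lower, and the pore gene Orai1 (0.49) and the sensor gene Stim1 (0.36) were higher. Stim2, the other store sensor, was at 44.6 ± 3.71 and 48.6 ± 8.35 CPM and not called (0.11 ± 0.09, adjusted p = 0.31 in edgeR).

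Receptors for chemoattractants had 2 of 23 tested members higher and 10 lower, 1 and 5 of them past 1 log2 (median -0.51, window-adjusted -0.43). C5ar1, the receptor for complement fragment C5a, held 159.5, 169, 159, 83.4 and 104 CPM in wild type and 23.6, 19, 20.2, 9.27 and 20.6 CPM in the knockout. The groups did not overlap, and the difference was -2.87 ± 0.11 (adjusted p = 2.1e-09 in edgeR). Cmklr1, the chemerin receptor, was on in wild type only (3.61 ± 0.772 against 0.0353 ± 0.0484 CPM). The ADP receptor gene P2ry12, which directs process extension in microglia, fell by 1.90, and P2ry6, a receptor for UDP, by 0.85. S1pr1, a receptor for sphingosine 1-phosphate, was higher (1.06 ± 0.17). The receptors for fractalkine and for CXCL12, both with known roles in microglial movement, were not called, Cx3cr1 (-0.19 ± 0.14) and Cxcr4 (-0.21 ± 0.10). For Cx3cr1 the sign differed between batches, with -0.49, 0.64 and -0.05.

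Chemokine ligands, which these receptors read, had 1 of 16 tested members higher and 11 lower, 1 and 8 of them past 1 log2 (median -1.04, window-adjusted -1.07). Ccl24, an eosinophil attractant, held 10.04, 10.6, 14.6, 3.43 and 4.43 CPM in wild type and 2 reads in the knockout group, a ratio of 533 (95% counting interval 147 to 4408). The monocyte attractants Ccl12 (-3.59 ± 0.17) and Ccl2 (-0.85 ± 0.08) were lower, and so were Cxcl14 (-3.16 ± 0.18) and the T cell attractant Ccl5 (-0.996 ± 0.17). The 1 member called higher was Cxcl2, a neutrophil attractant, which rose by 1.83 ± 0.22 while its groups overlapped. Ccl12 differed between treatments, with -0.08 ± 0.32 under IFNγ.

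Integrins and other adhesion molecules had 8 of 38 tested members higher and 16 lower, 2 and 9 of them past 1 log2 (median -0.25, window-adjusted -0.17). Beside Itga9 and Itgax, the lower genes included the β5 chain Itgb5 (-1.63 ± 0.10) and the thrombospondin receptor Cd36 (-3.32 ± 0.13). Tln1, which encodes talin, the protein that couples integrins to actin, was the largest rise. Tln1 was 394, 407, 371, 301 and 365 CPM in wild type and 1050.03, 1142, 1221, 807 and 759.98 CPM in the knockout. The knockout libraries were all above the highest wild-type library, with a difference of 1.42 ± 0.08 (adjusted p = 6.3e-08 in edgeR), and the gene lies in the first, higher part of chromosome 4. Alcam (1.11 ± 0.07) and Lgals3, or galectin-3 (0.49 ± 0.07), were higher as well. Itgam, the αM chain known as CD11b, was not called (-0.18 ± 0.14).

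Of the actin machinery 20 of 67 tested genes were higher and 15 lower, 1 and 5 of them past 1 log2 (median 0.07, window-adjusted 0). These counts were near the shares over all tested genes, 24.7% higher and 24.9% lower. Enah, an elongation factor of actin filaments at the leading edge, held 59.6, 66.7, 55.7, 56.6 and 71.1 CPM in wild type and 0.724, 0.384, 0.274, 0.461 and 0.0435 CPM in the knockout. No library came between, and the difference was -7.30 ± 0.26. Aif1, which encodes the actin-bundling protein IBA1 and is the usual stain for microglia, went from 25.6 ± 2.77 to 3.57 ± 1.43 CPM (-2.88 ± 0.23), and Rhou fell by 2.88. Higher were the formin gene Diaph2 (1.48), the coronin gene Coro1a (0.58), Rac1 (0.50) and the Arp2/3 subunit gene Arpc1b (0.59), while Rhoa (-0.58, chromosome 9), Cdc42 (-0.69, chromosome 4) and Cfl1 (-0.44, chromosome 19) were lower. Myo6, a motor that walks to the minus end of actin, fell from 31.3 ± 17 to 0.129 ± 0.0537 CPM (-7.85 ± 0.22).

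Among matrix proteins, proteases and inhibitors 5 of 21 tested genes were higher and 13 lower, 1 and 7 of them past 1 log2 (median -0.30, window-adjusted -0.25). Spp1, or osteopontin, a secreted ligand of integrins, held 7765, 7504, 7109.8, 11466 and 14217 CPM in wild type and 906, 819, 759, 1407 and 1634 CPM in the knockout. The difference was -3.13 ± 0.07 (adjusted p = 1.4e-11 in edgeR) and hardly varied between batches, at -3.17, -3.03 and -3.12. Mmp9, gelatinase B, was 30.01, 25.1, 25.6, 59.6 and 185 CPM in wild type and 1.14, 0.981, 1.05, 1.34 and 4.01 CPM in the knockout. Its wild-type level in batch 3 was the highest by far, yet the log2 difference was -4.55, -5.38 and -5.50 in the 3 batches. Mmp12, macrophage elastase, ran the other way, at 6.35, 6.73, 5.78, 15.7 and 45.8 CPM in wild type and 99.5, 102, 99.3, 138 and 89.97 CPM in the knockout. That difference, 3.18 ± 0.38, shrank from 3.98 in batch 1 to 0.97 in batch 3 and was -1.21 ± 0.60 under IFNγ. The protease gene Adamts1 rose by 0.50 ± 0.14 and the inhibitor gene Timp2 fell by 1.09. Guidance ligands and receptors, which repel or attract moving cells, had 3 of 19 tested members higher and 12 lower, 0 and 5 of them past 1 log2 (median -0.40, window-adjusted -0.21). The largest differences after Ephb2 were in Epha2 (-5.999 ± 0.39) and Ephb4 (-3.28 ± 0.26), both ephrin receptors, Sema4a was lower too (-0.82 ± 0.06), and Nrp2, a semaphorin co-receptor, rose by 0.29 ± 0.07.

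Markers of homeostatic microglia, the surveying state in the brain, had 5 of 17 tested members higher and 9 lower, 1 and 8 of them past 1 log2 (median -0.77, window-adjusted -0.43). Slc2a5, a fructose carrier restricted to microglia in the brain, held 245, 229, 237, 202 and 167 CPM in wild type and 1.79, 1.41, 1.28, 0.797 and 1.18 CPM in the knockout. The difference was -7.38 ± 0.12 (adjusted p = 2.3e-12 in edgeR). Fcrls (-4.24 ± 0.20), the apoptotic-cell receptor gene Mertk (-3.43 ± 0.23), Tmem119 (-1.11 ± 0.14) and Csf1r, the receptor on which microglial survival depends (-0.77 ± 0.09), were lower, while Trem2, a lipid-sensing receptor (0.65 ± 0.09), and Tgfbr1 (0.85 ± 0.10) were higher. Over the tested homeostatic markers, called or not, the differences ran from -7.38 to 2.46. Genes of the disease-associated state seen around plaques had 4 of 28 tested members higher and 20 lower, 0 and 9 of them past 1 log2 (median -0.45, window-adjusted -0.45). Apoe, the lipid carrier, held 1605, 1424, 1923, 2415 and 2663 CPM in wild type and 56.6, 53.3, 62.8, 85.4 and 96.9 CPM in the knockout. The difference was -4.83 ± 0.10, with -4.83, -4.82 and -4.78 in the 3 batches. Axl went from 27.2 ± 26.1 to 0.335 ± 0.163 CPM (-6.15 ± 0.29) and the lysozyme gene Lyz2 from 3428 ± 849.8 to 829 ± 109.98 CPM (-2.02 ± 0.16). Spp1, Itgax, Timp2 and others stand in more than 1 of these lists, so the counts are not independent.

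Of the lineage transcription factors and markers 8 of 31 tested genes were higher and 15 lower, 1 and 5 of them past 1 log2 (median -0.27, window-adjusted -0.30). Maf, a factor that keeps macrophages differentiated, held 134, 145, 142, 141 and 178 CPM in wild type and 12.5, 15.3, 15, 8.31 and 3.7 CPM in the knockout. The difference was -3.83 ± 0.27, and -1.53 ± 0.09 under IFNγ. The scavenger receptor gene Marco fell by 4.31, and the factor genes Klf4 (1.67) and Cebpd (0.67) rose. Spi1, which encodes PU.1 (-0.09 ± 0.10), and Adgre1, or F4/80 (-0.03 ± 0.09), were not called.

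Phagocytosis, scavenger, Fc and complement genes had the lowest median of all 40 lists: 1 of 28 tested genes were higher and 20 lower, 0 and 17 of them past 1 log2 (median -1.25, window-adjusted -1.42). The 3 chains of C1q, which starts the classical complement pathway, lie side by side on chromosome 4, in its lower stretch, and all 3 were lower. C1qb held 594, 570.3, 718, 328 and 306 CPM in wild type and 12.9, 9.0, 9.17, 2.47 and 2.48 CPM in the knockout. Both lines were lowest in batches 2 and 3, and the difference was -6.26 ± 0.21. C1qa was at -6.56 ± 0.25 and C1qc at -6.65 ± 0.27. The mannose receptor gene Mrc1 (-3.41 ± 0.10) and Cd36, Mertk and Axl, all uptake receptors, were lower without overlap between groups. The common Fc chain Fcer1g was the only member called higher (0.41 ± 0.08). Inhibitory and CD300 receptors had 2 of 26 tested members higher and 10 lower, 0 and 4 of them past 1 log2 (median -0.05, window-adjusted -0.13). They included the sialic acid receptor gene Cd22 (-3.55), the costimulator genes Cd40 (-2.77) and Cd86 (-0.66) on the lower side and Havcr2, or TIM-3 (0.77), on the higher side.

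**Figure D4:**
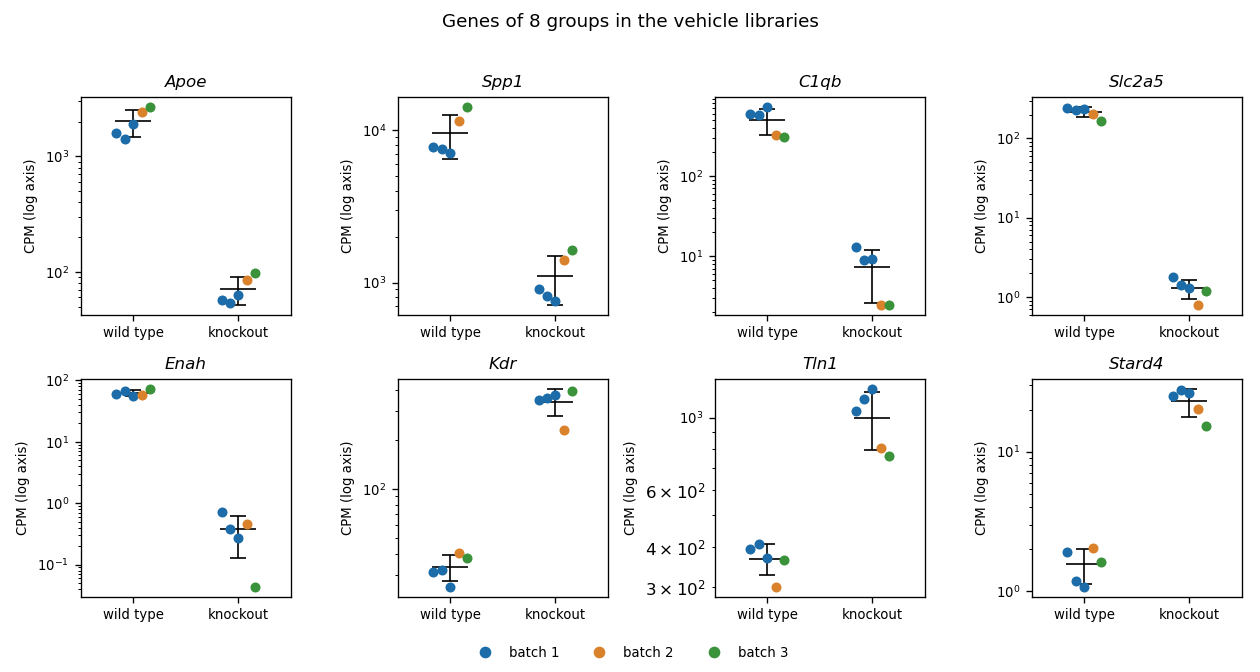
CPM on a log axis of 8 genes in each vehicle library, with points coloured by batch and a bar with whiskers for the mean ± SD of 5 libraries a line (a lower whisker that would reach 0 is cut short). The lines do not overlap for any of the 8, which are lower in the knockout for Apoe, Spp1, C1qb, Slc2a5 and Enah and higher for Kdr, Tln1 and Stard4.

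Toll-like receptors and NF-κB genes, which sense microbes and relay the signal, had 11 of 36 tested members higher and 12 lower, 0 and 4 of them past 1 log2 (median -0.03, window-adjusted 0.03). Among nucleic acid receptors of the endosome, Tlr8, from 12.2 ± 5.18 to 0.691 ± 0.295 CPM (-4.11 ± 0.19), and Tlr9 (-1.85 ± 0.10) were lower, whereas Tlr4, the surface receptor for endotoxin, was higher (0.50 ± 0.09). Irak3, an inhibitor of this signalling, fell by 5.75, and the adaptor gene Myd88, on chromosome 9, by 1.06. Nfkbie (0.55) and Tnip1 (0.46), both inhibitors of NF-κB, rose.

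Cytokines and inflammatory mediators had 6 of 35 tested members higher and 19 lower, 0 and 12 of them past 1 log2 (median -0.51, window-adjusted -0.72). Il1a fell by 4.56 and Il1b by 1.78, both interleukin-1 genes, and Tgfb2, a TGF-β ligand gene, fell by 5.32. Nos2, inducible nitric oxide synthase, was 6.35, 6.09, 5.14, 78.4 and 223 CPM in wild type and 3.74, 2.39, 3.33, 17.7 and 17.6 CPM in the knockout. The batches differed more than the lines within batch 1, so the groups overlapped, and the log2 difference was -0.89, -2.14 and -3.66 in batches 1, 2 and 3. Without the batch term Nos2 was not called (adjusted p = 0.074). Tnf (0.31 ± 0.16, adjusted p = 0.12) and Ptgs2, or cyclooxygenase 2 (0.14 ± 0.13, adjusted p = 0.42), 2 genes often read out in studies of RGS10, were not called in vehicle by edgeR. Il6 did not reach the level needed for a test. Under IFNγ, Ptgs2 was at -1.22 ± 0.22 (adjusted p = 0.0019 in edgeR), but the change between treatments was not called (adjusted p = 0.052).

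Interferon-stimulated antiviral genes had 4 of 42 tested members higher and 21 lower, 1 and 8 of them past 1 log2 (median -0.24, window-adjusted -0.26). Ifitm3, which blocks viral entry, went from 109 ± 46.8 to 6.69 ± 2.08 CPM in vehicle (-3.95 ± 0.12), and under IFNγ the difference was -0.35 ± 0.16. Cmpk2 (-0.99) and Ifi27 (-1.02) were lower, and the RNA sensor genes Ddx58 (1.03) and Ifih1 (0.70) were higher. Ifitm genes have close copies between which reads can be shared. Interferon-inducible GTPases had 0 of 15 tested members higher and 8 lower, 0 and 3 of them past 1 log2 (median -0.58, window-adjusted -0.40). Of those called, Gbp7 (-0.91 ± 0.14) and Igtp (-0.67 ± 0.08) were among the more abundant, and members of this family are also near-identical in sequence. Interferon receptors, JAK, STAT, SOCS and IRF genes had 2 of 28 tested members higher and 15 lower, 0 and 3 of them past 1 log2 (median -0.45, window-adjusted -0.21). Jak2, the kinase of the IFNγ receptor, went from 46.6 ± 15.9 to 16.2 ± 2.62 CPM (-1.47 ± 0.13) and lies on chromosome 19. Irf4 (-1.84) and Stat3 (-0.71) were lower and the receptor chain Ifngr2 (0.35) was higher.

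MHC class I and peptide loading genes had 5 of 23 tested members higher and 7 lower, 0 and 4 of them past 1 log2 (median -0.11, window-adjusted -0.17). The counts called each way were near the shares over all tested genes, 24.7% higher and 24.9% lower. H2-Q7 (-1.31 ± 0.13) and H2-Q6 (-1.23 ± 0.17), near-identical genes that share reads, were lower and Erap1, which trims peptides for class I, was higher (0.62 ± 0.07). Over the tested class I and peptide loading genes, called or not, the differences ran from -5.09 to 0.79. Class II genes had 1 of 8 tested members higher and 4 lower, 0 and 2 of them past 1 log2 (median -0.69, window-adjusted -0.61). Cd74, the invariant chain, was not called (-0.60 ± 0.26, adjusted p = 0.072 in edgeR). Its wild-type libraries were at 156, 129.6, 147, 470.1 and 490.1 CPM and its knockout libraries at 152, 152, 143, 194 and 132 CPM. In batch 1 the lines were level, and in batches 2 and 3 only the wild type was high.

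Immediate early genes and MAP kinase phosphatases had 7 of 35 tested members higher and 6 lower, 0 and 4 of them past 1 log2 (median 0.01, window-adjusted 0.05). In all 37.1% of these members were called, beside 49.6% of all tested genes. Spry4, an inhibitor of receptor kinase signalling, was on in wild type only, with 1 read in the knockout group (read ratio 515, 95% counting interval 91.8 to 20379). Fos (-1.08 ± 0.13) and the phosphatase gene Dusp7 (-1.18 ± 0.09, chromosome 9) were lower and Atf3 (0.94 ± 0.11) and Spred1 (0.57 ± 0.06) were higher. Of VEGF and hypoxia genes, 4 of 17 tested genes were higher and 4 lower, 2 and 0 of them past 1 log2 (median 0.20, window-adjusted 0). The counts called each way were near the shares over all tested genes, 24.7% higher and 24.9% lower. The median of this list was 0.47, -0.12 and -0.54 in batches 1, 2 and 3, so its sign turned in batches 2 and 3. Kdr, VEGF receptor 2, held 31.2, 32.2, 25.3, 40.6 and 38 CPM in wild type and 347, 359, 372, 229.99 and 393 CPM in the knockout. Every knockout library was above wild type, and the difference was 3.34 ± 0.15 (adjusted p = 7.9e-09 in edgeR). Of the other endothelial markers, Vwf was higher (0.69 ± 0.17), Cdh5 was not called and was under 1 CPM on average in both lines, and Cldn5 was under 0.1 CPM in all libraries. Vegfa was not called (-0.03 ± 0.11) and Flt1, VEGF receptor 1, was lower (-0.62 ± 0.11).

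Genes of DNA replication and S phase had 10 of 36 tested members higher and 2 lower (median 0.19, window-adjusted 0.06). The median of this list was -0.10, 0.39 and 0.84 in batches 1, 2 and 3, so its sign turned in batch 1. Mcm3, of the replicative helicase (0.75 ± 0.11), and the activator gene E2f1 (0.66 ± 0.09) were higher and its relative E2f2, on chromosome 4, was lower (-0.70 ± 0.08). Mitosis and spindle genes had 14 of 36 tested members higher and 6 lower (median 0.17, window-adjusted 0.09) and batch medians of 0.04, 0.27 and 0.51, with Bub1 (0.44), Nusap1 (0.50) and Aurka (0.56) higher, Ttk (-0.42, with -0.61, -0.39 and 0.19 in the 3 batches, chromosome 9) lower and Mki67 (0.03) not called. Of the G1 regulators 5 of 17 tested genes were higher and 3 lower, 1 and 1 of them past 1 log2 (median -0.003, window-adjusted 0.08), with Cdk6 (0.87) and Ccnd3 (0.63) higher and the inhibitor gene Cdkn2a (-0.76) lower. Over the tested G1 regulators, called or not, the differences ran from -1.68 to 1.39. Among p53 and its targets 7 of 25 tested genes were higher and 2 lower, 2 and 1 of them past 1 log2 (median -0.05, window-adjusted 0.12), led by the kinase gene Plk2 (1.64 ± 0.16, chromosome 13) and Bbc3, which encodes PUMA (1.18 ± 0.11), and with Sesn1 lower (-1.08 ± 0.07).

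Cholesterol and fatty acid synthesis showed more rises than falls: 13 of 30 tested genes were higher and 2 lower, 3 and 0 of them past 1 log2 (median 0.28, window-adjusted 0.28). The median of this list was -0.00012, 0.70 and 0.85 in batches 1, 2 and 3, so it was about 0 in batch 1. Stard4, a sterol carrier, held 1.9, 1.18, 1.08, 2.06 and 1.62 CPM in wild type and 24.9, 27.5, 26.3, 20.3 and 15.3 CPM in the knockout. The difference was 3.86 ± 0.20, with 4.19, 3.25 and 3.17 in batches 1, 2 and 3. Hsd17b7, an enzyme of cholesterol synthesis, rose from 3.93 ± 2.67 to 19.99 ± 6.92 CPM (2.50 ± 0.26). The 2 lower members were the fatty acid genes Acaca (-0.31) and Acly (-0.30). Efflux genes under LXR had 2 of 17 tested members higher and 8 lower, 0 and 4 of them past 1 log2 (median -0.13, window-adjusted -0.22). Beside Apoe and Cd36, the fatty acid carrier Fabp4 was lower (-1.34 ± 0.10), while the exporter gene Abca1 (0.70 ± 0.11) was higher.

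Glycolysis and pentose phosphate genes had 7 of 29 tested members higher and 9 lower, 2 and 1 of them past 1 log2 (median -0.04, window-adjusted 0). Slc2a3, the glucose carrier GLUT3, was 82.8, 86.3, 73.5, 389 and 575 CPM in wild type and 14.2, 12.6, 13.4, 28 and 14.2 CPM in the knockout. The difference, -3.37 ± 0.35, grew from -2.58 in batch 1 to -5.33 in batch 3 as the wild-type level rose. Eno1 (-0.61 ± 0.08, chromosome 4) was lower, and Eno2 (3.94 ± 0.46) and Hk3 (1.44 ± 0.09, chromosome 13) were higher. Respiratory chain subunits encoded in the nucleus had 8 of 41 tested members higher and 10 lower (median -0.03, window-adjusted -0.0071), none past 1 log2. The counts of this list and of the glycolysis list were near the shares over all tested genes, 24.7% higher and 24.9% lower. Sdhb on chromosome 4 (-0.91) and Uqcrc1 on chromosome 9 (-0.87) were lower and Sdha on chromosome 13 (0.55) was higher. Mitochondrially encoded genes had 0 of 10 tested members higher and 5 lower, 0 and 1 of them past 1 log2 (median -0.59), among them mt-Cytb (-1.05 ± 0.27), whose call was lost with the libraries of batch 1 summed, with all 20 libraries in the fit and without the batch term (adjusted p = 0.16, 0.16 and 0.19 in edgeR). The median over the mitochondrial genome was -0.85, -0.15 and 0.14 in batches 1, 2 and 3, so the sign turned in batch 3. Cytosolic ribosomal proteins had 6 of 45 tested members higher and 7 lower (median 0.05, window-adjusted -0.04), none past 1 log2, and of the lower ones Rpsa (-0.79) and Rpl14 (-0.64) lie on chromosome 9 and Rpl11 (-0.69) on chromosome 4.

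In the unfolded protein and integrated stress responses 12 of 33 tested genes were higher and 6 lower, 4 and 0 of them past 1 log2 (median 0.11, window-adjusted 0.21). Atf4 and 3 known targets of its product were higher, with Atf4 at 0.87 ± 0.10, Ddit3 (CHOP) at 1.36 ± 0.19, Ppp1r15a (GADD34) at 1.27 ± 0.07, and the pseudokinase gene Trib3 at 1.60 ± 0.13, whereas the chaperone genes Hsp90b1 (-0.54 ± 0.10) and Manf (-0.82 ± 0.14) were lower and Hspa5, or BiP, was not called (-0.15 ± 0.14). Trib3 held 58.8, 54.9, 64.4, 44 and 33.6 CPM in wild type and 184, 174, 169.9, 91 and 162 CPM in the knockout, without overlap. NRF2 targets, glutathione, oxidase and iron genes had 10 of 34 tested members higher and 12 lower, 2 and 5 of them past 1 log2 (median 0.02, window-adjusted 0.04). Me1 (1.91 ± 0.07), Txn1 (1.03 ± 0.09) and catalase, Cat (0.56 ± 0.08), were higher and Gstp1 (-1.74 ± 0.11, chromosome 19), Gsr (-1.01 ± 0.09) and the metal transporter of phagosomes, Slc11a1 (-1.22 ± 0.07), were lower. Lysosome and autophagy genes had 6 of 40 tested members higher and 17 lower, 0 and 3 of them past 1 log2 (median -0.19, window-adjusted -0.23). The cathepsin gene Ctsh went from 109.6 ± 28.1 to 5.98 ± 0.992 CPM (-4.16 ± 0.16), and Psap (-1.0 ± 0.07) and the channel gene Mcoln1 (-1.25 ± 0.08) were lower, while the autophagy receptor gene Sqstm1 (0.84 ± 0.07) and the regulator gene Tfeb (0.94 ± 0.09) were higher. Among non-polyadenylated and nuclear transcripts 3 of 9 tested genes were higher and 2 lower, 2 and 0 of them past 1 log2 (median 0.03, window-adjusted 0.05). Malat1, highest in batch 2 of both lines, fell by 0.41.

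**Figure D5:**
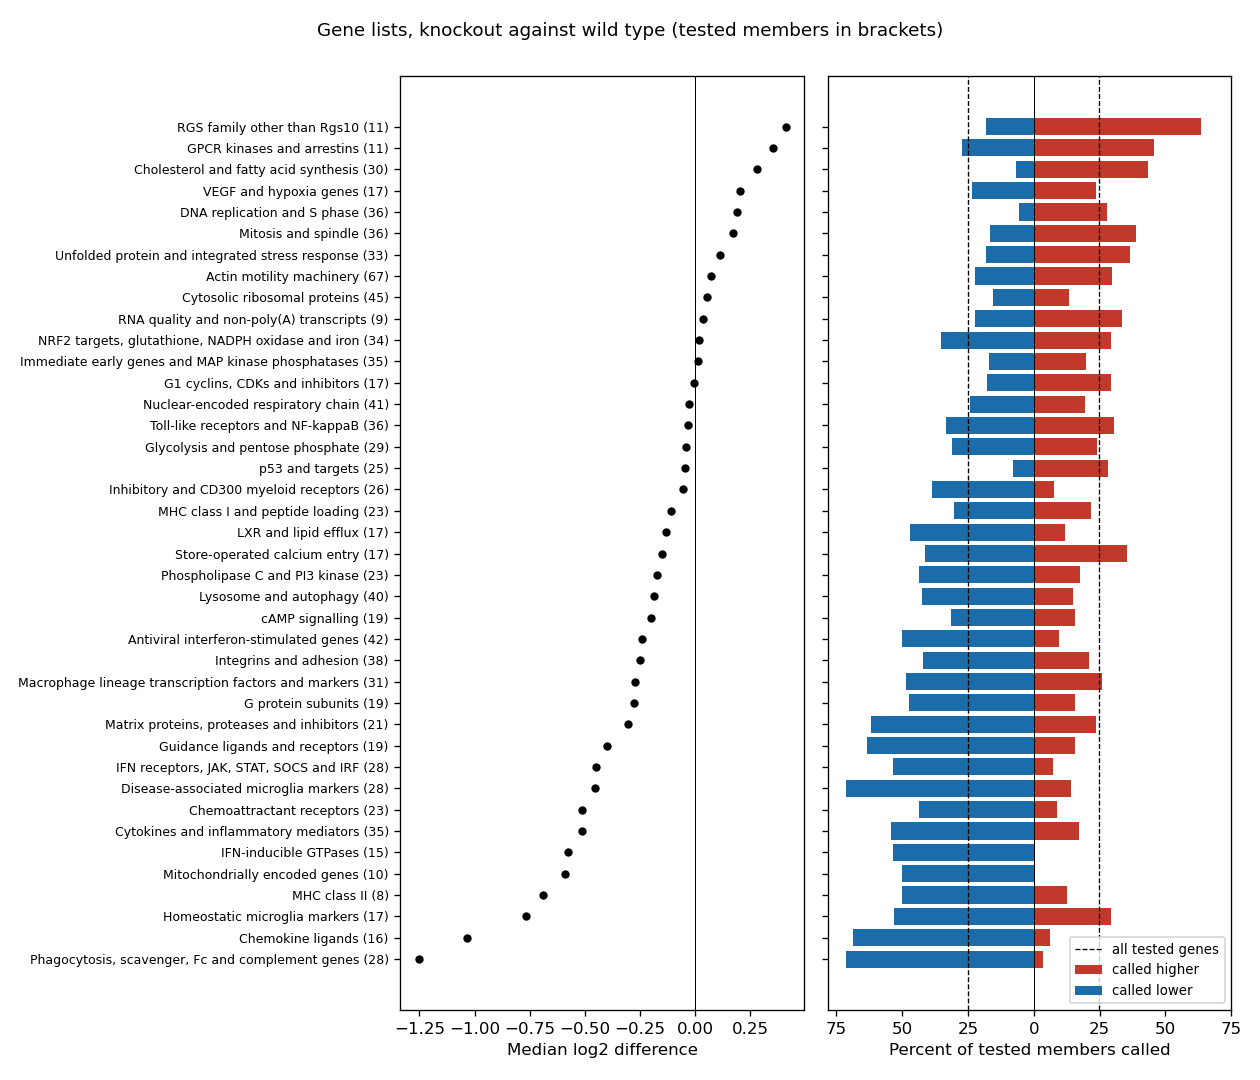
For each of 40 gene lists, the median log2 difference of its tested members (left) and the percent of them called higher or lower (right), with dashed lines at the shares over all tested genes, 24.7% and 24.9%. Phagocytosis and chemokine lists have the lowest medians, and the RGS and GPCR kinase lists the highest, before adjustment for windows.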

How the data were processed

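The deposited table holds raw counts per gene and library. Per the submitters' processing notes, FastQC, Trim Galore, STAR and DESeq2 were used with build GRCm39; neither the counting step nor its use of strand is stated there or in the labels, so reads of overlapping or antisense genes cannot be told apart. Per the labels' protocols, total RNA was enriched for poly(A). Gene IDs were matched to symbols, which 91.2% of 56941 IDs had. Genes without a symbol held 0.482% of counts.

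Columns were mapped to samples by library name. Counts were fitted with edgeR 4.0.16 in R 4.3.3 (TMM normalization, filterByExpr, robust quasi-likelihood) as genotype plus batch over the 10 vehicle libraries, with 6 residual degrees of freedom. Separate fits gave the difference under IFNγ (10 libraries) and its change between treatments (20 libraries). CPM used TMM-scaled library sizes. Differences within a batch are of log2 CPM with a prior count of 2. A group without reads was given a floor of 3 counts over its 5 libraries, and fold bounds are of the other group's mean. Intervals and floors cover counting error only. In simulated data for this comparison over 12432 genes, edgeR recovered 77.6%, 89.1% and 96.8% of genes planted at 1.5, 2 and 4-fold and called 0.0654% of unchanged ones. Only 200 genes were planted as changed there, and no batch effect was simulated, whereas 49.6% of the real tested genes were called. These rates are therefore not the error rates of the calls above. The biological coefficient of variation was 13.1%, and 6.51% within batch 1.

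Members and gene lists were chosen with earlier results of these data known. Genes were named by rule: a panel tied to RGS10 and migration, the 15 largest called differences each way, the 8 largest in CPM each way, up to 3 of smallest p each way per list, the 10 highest of those on in one line only and the 5 neighbours on each side of Rgs10; some that met it are left out. Named after their values were seen, for their known roles, were Adgre1, Atf4, C1qc, Cdc42, Cfl1, Csf1r, Ddit3, Hspa5, Mki67, Myd88, Rhoa, Spi1 and Tmem119, and from the marker lists Map2, Mbp, Tubb3, Vwf and Zbtb46. Lists are described by counts and medians, without a test. Alternatives, with DESeq2 1.42.0 and limma 3.58.1 among them, are in the closing section. Promoter sequences are RefSeq's on GRCm38.p6, and gene order is that of GRCm38.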

Additional observations from a re-analysis of the deposited data

Results flagged for a closer look

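For 43 of the 196 genes given values above, the knockout difference changed between vehicle and IFNγ by the interaction test over all 20 libraries, where 6.5% of all genes tested for it did. Many of the 196 were named for a large difference or small p in vehicle, and the same vehicle libraries enter this test. An excess over 6.5%, and shifts toward 0, can come from that choice alone, whose part was not tested. The values in brackets are the difference under IFNγ minus that in vehicle, on the log2 scale, from that fit. Genes lower in the knockout that were less so under IFNγ were Aif1 (1.73), C1qa (3.50), C1qb (3.34), C1qc (3.10), Ccl12 (3.72), Cd36 (1.59), Ifitm3 (3.58), Lyz2 (0.93), Maf (2.25), Mrc1 (1.37), P2ry12 (1.54), Rgs10 (0.84), Spp1 (1.69), Tlr8 (3.27) and Tlr9 (1.35), with adjusted p between 4.9e-05 and 0.044 in edgeR. Genes higher in the knockout that were less so under IFNγ were Diaph2 (-0.84), Hk3 (-0.996), Kdr (-1.46), Klf4 (-1.50), Me1 (-1.03), Plk2 (-1.15) and Trib3 (-0.97), with adjusted p between 0.00041 and 0.047 in edgeR. The estimate under IFNγ had the other sign for Alcam (-1.17), Atf4 (-1.24), Ddit3 (-1.72), Eef1a1 (1.04), Gna15 (0.93), H2-Q7 (1.59), Lgals3 (-1.14), Mmp12 (-4.51), Rgs1 (-2.26), Rpl14 (0.99), S1pr1 (-1.61), Sesn1 (1.32), Sqstm1 (-0.90), Tgfbr1 (-1.08), Ttk (1.35) and Vwf (-1.46), with adjusted p between 0.0012 and 0.039 in edgeR. It had the same sign and was larger for Aurka (1.80), Bub1 (1.61), Cd74 (-1.77), Cxcr4 (-1.16) and Vegfa (-1.21), with adjusted p between 4.9e-05 and 0.03 in edgeR. The shifts of Ifitm3, Ccl12 and Tlr8 left estimates under IFNγ of -0.35, -0.08 and -0.89.

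A single library stood apart from the other 4 of its line, with a gap of over 0.71 of the range, in 34 of 362 groups of 5 with a mean of at least 1 CPM. Chance gives about 1 in 20 for 5 libraries drawn alike. Each group here spans 3 batches, so that rate is no measure of chance in this design. Levels in brackets are the CPM of that library. Wild-type replicate 5, the only wild-type library of batch 3, stood apart for Col5a3 (16.8), E2f2 (45.3), Il1b (5.02), Itgam (97.6), Itpr2 (51.2), Klf4 (15.4), Maf (178), Mmp12 (45.8), Mmp9 (185) and Plk2 (199). Wild-type replicate 4, of batch 2, did so for Malat1 (164), Nrp2 (231) and Tnf (14.4). In the knockout, replicate 4 did so for Csf1r (355), Dusp7 (73.1), Flt1 (117), H2-Q6 (7.8), Hspa8 (2035), Kdr (229.99), Malat1 (129.9), Mmp12 (138), Psap (1062), Slc2a3 (28), Tgfbr1 (61.6), Timp2 (129.8) and Trib3 (91), and replicate 5 for Gnai2 (339.6), Mmp9 (4.01), S1pr1 (26.9), Sesn1 (25.3) and Tnf (51). The libraries of batch 1 did so for few genes, which were Diaph2 (19.4) in wild-type replicate 2, Grk5 (5.15) in knockout replicate 1 and Ephb4 (2.43) in knockout replicate 2. For replicates 4 and 5, each the only library of its line in its batch, library and batch cannot be told apart.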

How the results depend on the processing

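The Rgs10 difference kept its call and sign under all 23 alternatives, and leaving out 1 replicate at a time gave log2 differences from -1.21 to -1.10. Leaving out 1 replicate gave 5613 to 6934 called genes, 2726 to 3398 of them higher and 2875 to 3536 lower, and 1440 to 1506 past 1 log2. Fitting all 20 libraries gave 3753 called genes (1723 higher, 2030 lower). Dropping the batch term gave 4114 (1904 higher). Summing the libraries of batch 1, an alternative chosen after seeing the data, gave 3048 (1289 higher, 1759 lower). The count past 1 log2 stayed between 1156 and 1998 under these and the other alternatives. Plain library totals moved the median of all genes from 0.03 to 0.08 and the share of calls that were higher from 49.7% to 58%. With the replicate number as a block in place of batch, 5285 genes were called. Same-numbered libraries of batch 1 did not deviate together (correlations -0.041, -0.015 and 0.0049), so the numbers do not pair them, and replicates 4 and 5 share only their batch.

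Under IFNγ, dropping the batch term left 1864 called genes (870 higher, 994 lower) and 1184 past 1 log2, from 5542 and 1941. For the change between treatments, from 894 genes, DESeq2 gave 1480 (827 and 653 in the 2 directions), no batch term 138 (70 and 68, and 110 past 1 log2), and the replicate block 530 (287 and 243). Without the filter on low counts, chromosome medians moved by more than the spread over batches to -0.0125 on chromosome 4, -0.35 on chromosome 9, 0.42 on chromosome 13, 0.0354 on chromosome 15 and 0.17 on chromosome 17. The cause of these shifts was not tested.

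Of 183 called genes given values above, 147 kept their call under every alternative that tested them, as did 100 of the 106 past 1 log2; the exceptions were Cox6a2, Mbp, Nos2, Pde7a, Tubb3 and mt-Cytb. The calls lost were 19 with all 20 libraries, 20 without the batch term, 18 with batch 1 summed and 2 (Cox6a2 and Mbp) with batch 1 alone, and none reversed. Of 80 counts of list members called higher or lower, 43, 40 and 46 moved by over 1.5 times with all 20 libraries, without the batch term and with batch 1 summed. Depth limits genes with 0 to 3 reads in 1 line, for which only a lower bound or a ratio with its counting interval is given.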

Other observations

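Hox genes, which hold positional identity in development and are used by blood cell precursors, were measured in 9 cases. Of these, 5 were lower in the knockout and 1, not named here, was higher. Over all tested genes 24.9% were lower and 24.7% higher. Hoxb9 had 233 reads in the wild-type libraries and 0 in the knockout libraries, at least 98.2-fold lower, and Hoxc4 had 163 reads and 1 read, a ratio of 212 with a 95% counting interval of 37.6 to 8440. Hoxa10 averaged 1.97 CPM in wild type against 0.0868 CPM in the knockout, while Hoxa4 and Hoxa5 were not called by edgeR. Lin28b, which blocks maturation of let-7 microRNAs, had 300 reads in wild type and 1 in the knockout, a ratio of 391 with an interval of 69.6 to 15490. Of clustered protocadherin genes, whose variable first exons give neurons a surface identity, 5 were tested, 3 lower and 2 higher. Pcdhgb1 had 108 reads in wild type and 2 in the knockout, whereas Pcdhgc3 had 0 reads in wild type and 122 in the knockout. Transcripts of 1 protocadherin cluster share their last exons, so reads may be split between them. These genes were looked at after their values were seen, so the counts of both families are no result about them.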
